A study of Mus musculus with 10 samples.

Results

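The nuclear genes for subunits of the mitochondrial respiratory chain and ATP synthase were examined in cochleae, the part of the ear that turns sound into nerve signals, from mice of the CBA/CaJ strain. They were taken by symbol, as the genes annotated alone to a row of the array table and starting with Ndufa, Ndufb, Ndufc, Ndufs, Ndufv, Uqcr, Cox4i, Cox5, Cox6, Cox7, Cox8a or Atp5, or equal to Sdha, Sdhb, Sdhc, Sdhd, Cycs or Cyc1. This gave 84 of 29765 genes, with 36 in complex I, 4 in complex II, 9 in complex III, 16 in complex IV, 18 in complex V (ATP synthase) and Cycs for the carrier cytochrome c. All mice were 6 months old, had normal hearing and were caged singly, 5 with a running wheel (runners) and 5 without one (controls), and each sample was put on 1 microarray. Running distance, sex and the length of wheel access are not in the labels used here, which also leave unsaid whether every array stands for its own animal. The p-values therefore rest on sample-to-sample spread that could be technical. The comparison addresses whether expression of these genes differed between young mice housed with and without a wheel.

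The respiratory chain passes electrons from NADH and succinate to oxygen and stores the energy as a proton gradient, which ATP synthase uses to make ATP. Complex I (NADH dehydrogenase) and complex II (succinate dehydrogenase) feed electrons to complex III (cytochrome bc1), cytochrome c carries them on, and complex IV (cytochrome c oxidase) reduces oxygen. Most subunits are encoded in the nucleus and a few in mitochondrial DNA. Muscle, heart and brown fat are rich in the chain, endurance training raises its genes in skeletal muscle, and in the cochlea the stria vascularis is known for a high demand for ATP.

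Promoters of respiratory chain genes are known for sites of NRF1, of ETS family factors such as GABP, and of the estrogen-related receptors, and 68 of the 84 genes had a promoter window (250 bases before to 50 after the gene's start) in the RefSeq table of build GRCm38.p6. The ETS core CCGGAAG, searched on both strands, was in 17 of 68 member promoters (25%) and in 9.93% of all 27025 genes with such a window. The NRF1 core GCATGCGC was in 10 of 68 (14.7%), against 3.05% of all genes, and the receptor motif TCAAGGTCA in 2 of 68 (2.94%), against 0.466%. The palindrome GCGCATGCGC, which contains the NRF1 core on each strand, was searched first and was in 4 of 68 (5.88%, against 1.07% of all genes). The other 45 member promoters held none of the 3 motifs. The motifs can overlap each other and a match is a run of letters, not a site shown to be bound. The ETS and NRF1 cores are mostly G and C, and base composition was not matched between members and all genes. Its part in the higher shares was not tested. The 6 windows printed here, 5′ to 3′ along the gene's strand with motif letters in capitals, belong to the genes with the values described below. They are Uqcrh and Cycs, which head the comparison in complex III and for the carrier, Sdhd and Cox6a1, which each hold 2 different motifs, and the muscle and general isoforms Cox7a1 and Cox7a2, which hold none.
Uqcrh, chr4:116075021-116075320, minus strand: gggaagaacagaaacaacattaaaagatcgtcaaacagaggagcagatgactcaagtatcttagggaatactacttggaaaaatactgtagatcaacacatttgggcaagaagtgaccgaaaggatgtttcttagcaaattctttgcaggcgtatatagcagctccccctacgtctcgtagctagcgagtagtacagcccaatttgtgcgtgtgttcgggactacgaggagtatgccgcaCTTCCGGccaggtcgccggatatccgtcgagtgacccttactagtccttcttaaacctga
Cycs, chr6:50566520-50566819, minus strand: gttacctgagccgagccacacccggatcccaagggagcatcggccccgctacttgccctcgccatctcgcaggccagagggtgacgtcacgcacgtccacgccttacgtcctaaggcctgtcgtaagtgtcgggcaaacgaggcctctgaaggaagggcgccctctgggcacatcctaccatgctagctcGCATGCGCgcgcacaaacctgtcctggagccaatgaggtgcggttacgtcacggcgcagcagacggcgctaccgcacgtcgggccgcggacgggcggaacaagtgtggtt
Sdhd, chr9:50603800-50604099, minus strand: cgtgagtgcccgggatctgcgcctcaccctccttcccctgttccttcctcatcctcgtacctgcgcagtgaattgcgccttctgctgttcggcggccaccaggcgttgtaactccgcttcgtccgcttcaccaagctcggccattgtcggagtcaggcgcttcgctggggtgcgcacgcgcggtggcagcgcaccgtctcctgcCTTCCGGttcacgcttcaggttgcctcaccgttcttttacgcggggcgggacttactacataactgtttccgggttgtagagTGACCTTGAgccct
Cox6a1, chr5:115348909-115349208, minus strand: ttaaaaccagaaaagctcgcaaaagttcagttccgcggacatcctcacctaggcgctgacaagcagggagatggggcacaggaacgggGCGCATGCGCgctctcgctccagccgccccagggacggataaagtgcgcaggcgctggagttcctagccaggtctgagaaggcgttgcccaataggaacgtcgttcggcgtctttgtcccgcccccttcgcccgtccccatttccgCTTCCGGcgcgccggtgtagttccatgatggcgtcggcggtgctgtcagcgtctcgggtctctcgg
Cox7a1, chr7:30183921-30184220, plus strand: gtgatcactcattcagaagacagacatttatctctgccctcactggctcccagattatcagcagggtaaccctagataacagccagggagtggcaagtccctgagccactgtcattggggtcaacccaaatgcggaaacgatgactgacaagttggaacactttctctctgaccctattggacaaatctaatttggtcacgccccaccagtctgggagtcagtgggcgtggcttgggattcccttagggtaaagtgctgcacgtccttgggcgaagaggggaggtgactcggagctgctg
Cox7a2, chr9:79759804-79760103, minus strand: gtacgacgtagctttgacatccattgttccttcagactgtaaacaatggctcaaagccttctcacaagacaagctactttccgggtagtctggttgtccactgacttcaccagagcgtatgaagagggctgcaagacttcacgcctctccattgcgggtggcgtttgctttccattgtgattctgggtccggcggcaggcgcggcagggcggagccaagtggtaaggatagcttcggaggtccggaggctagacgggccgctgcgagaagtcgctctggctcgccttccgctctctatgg

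Array medians over the genes tested lay between 5.35 and 5.43 on the log2 scale, and correlations between arrays between 0.991 and 0.997, and no array duplicated another. Cochlear markers were measured, with Coch, a matrix protein of the spiral ligament, at 11.2 in controls and 11.1 in runners. Markers of other tissues were bright as well, among them Atp2a1, the calcium pump of fast muscle, at 9.82 in controls, Gabra6 of cerebellar granule cells at 10.6 and Alas2 of red cell precursors at 9.80. In such bulk samples fewer cells of a type and less RNA per cell cannot be told apart. Of all genes, 2 passed the test (limma, adjusted p under 0.05, 0.00672% of genes), and neither was a respiratory chain gene. Runner 1 decided this count, since without it 99 genes passed, again with no respiratory chain gene among them.

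No respiratory chain gene passed the test between runners and controls, and each difference was small. At an unadjusted p under 0.05, 0 of 84 were higher in runners, where 3.21% of all genes were, and 1 of 84, Cox6b2, was lower, where 3.92% of all genes were. The groups overlapped for all 84 members, whereas of all genes 0.927% did not overlap, 0.548% with every runner lower and 0.38% with every runner higher. The differences ran from -0.12 to 0.17 log2, and 61 of 84 were smaller than their own standard error. The 95% intervals, with moderated errors, reached down to -0.38 and up to 0.44 over the 84 genes, the latter 1.35-fold. Each interval was unadjusted and for 1 gene, so together they do not exclude a larger change of a member. The interval held 0 for 83 of 84.

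Most differences were above 0. By sign, 64 of 84 members were higher in runners, beside 50.5% of all genes, and the median difference was 0.041 log2 for members and 0.00091 for all genes. This count depended on single runners, in both directions. Without runner 3, 38 of 84 were higher, beside 50.04% of all genes, and the median was -0.0074. Without runner 5, 49 of 84 were higher, beside 47.7% of all genes, and the median was 0.0094. Without runner 2, 74 of 84 were higher, beside 53.1% of all genes, and the median was 0.082. Without runner 4, 73 of 84 were higher, beside 54.3%, and the median was 0.071. With 1 array left out, complexes I, II and III had their highest medians, 0.080, 0.062 and 0.11, without runner 2. Complexes IV and V had theirs, 0.074 and 0.064, without runner 4. Of the 33 members named here, 30 had a difference that moved over 1.5 times towards 0, or past it, when a single array was left out, runner 3 for 16 of them and runner 5 for 7. The 3 others were Uqcrh, Cox6b2 and Atp5sl. With each array centred on its median, 74 of 84 members and 61.4% of all genes were higher.

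**Figure D1:**
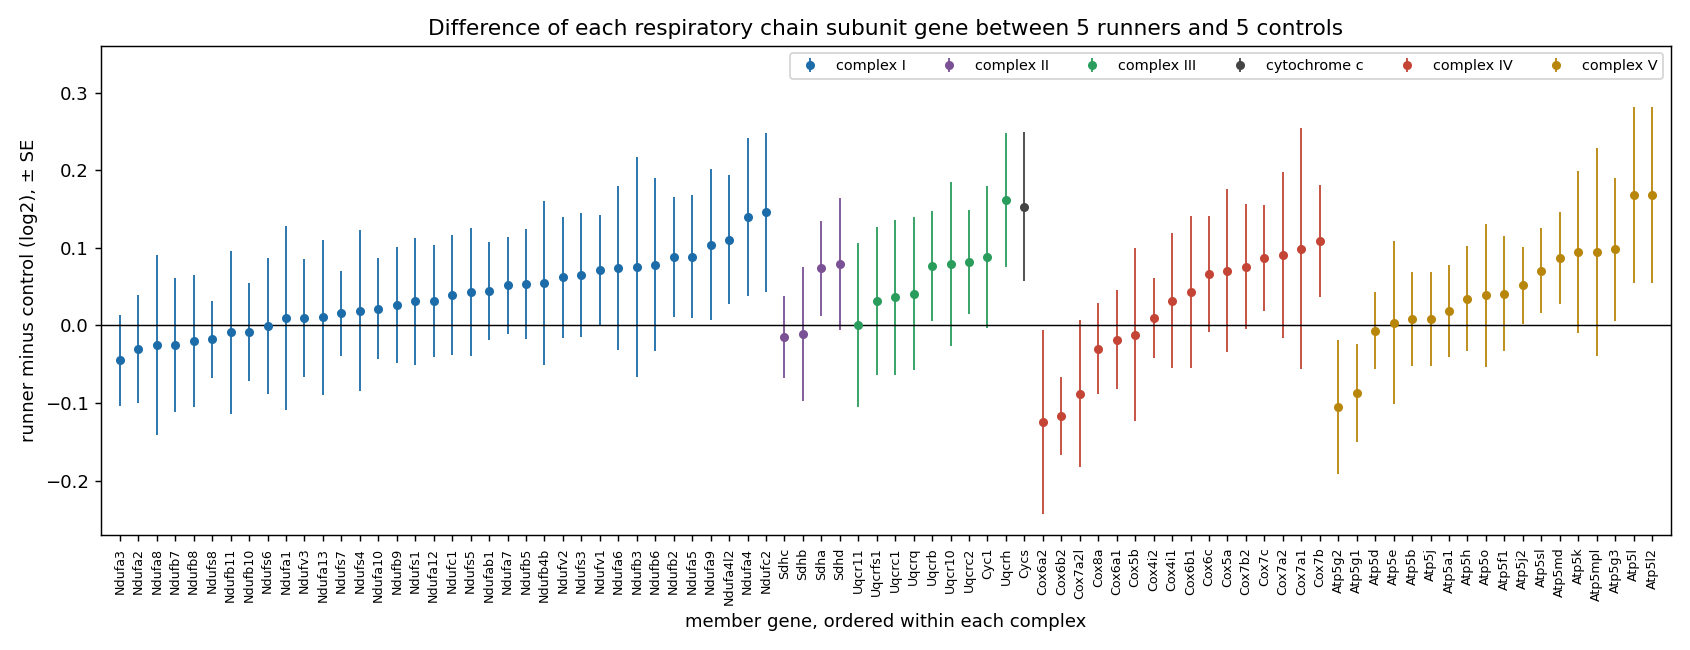
Difference in log2 level, runner minus control, for each of the 84 genes (points, n = 5 arrays a group) with its moderated standard error (bars), ordered within each complex. All 9 complex III genes lie above 0, and 61 of the 84 points lie within 1 standard error of 0.

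Complex I, the entry point for electrons from NADH, had 27 of 36 genes higher and 9 lower, with a median of 0.035 log2 (-0.014 without runner 3) and 0 at an unadjusted p under 0.05. Ndufc2, an accessory subunit of the membrane arm, had the smallest p in the complex. Its log2 levels were 7.13, 7.12, 7.42, 7.13 and 7.16 in controls 1 to 5 and 7.25, 7.12, 7.43, 7.22 and 7.69 in runners 1 to 5. Control 3 stood level with runner 3, runner 5 was highest, and runner 2 lay below all controls, a difference of 0.15 ± 0.10 (SE, limma adjusted p = 0.784) that was 0.058 without runner 5. Ndufa4, first described in complex I and now counted as a subunit of complex IV, was at 9.96, 9.77, 10.1, 9.83 and 9.87 in controls and 10.02, 9.80, 10.3, 9.86 and 10.3 in runners. Runners 3 and 5 lay above every control and runners 2 and 4 among the lower controls, a difference of 0.14 ± 0.10 (SE, limma adjusted p = 0.788) that was 0.077 without runner 3. Ndufb2, a small membrane-arm subunit, differed by 0.088 ± 0.078 (SE). Ndufb3, also of the membrane arm, varied most among the complex I genes, between 5.94 and 6.27 in controls and between 5.81 and 6.68 in runners. Its difference was 0.075 ± 0.14 (SE). Ndufb9 had the brightest row of the complex and differed by 0.027 ± 0.075 (SE). Controls had 10.82 ± 0.053 (SD, n = 5), runners 10.84 ± 0.16 (SD, n = 5).

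Complex II, which oxidises succinate in the citrate cycle and has no mitochondrially encoded subunit, had 2 genes on either side of 0 and a median of 0.031 log2 (0.0016 without runner 3). Sdha, the flavoprotein that binds succinate, was at 7.71, 7.61, 7.75, 7.73 and 7.76 in controls and 7.70, 7.69, 7.95, 7.79 and 7.80 in runners. Runners 3 to 5 lay above every control and runners 1 and 2 below controls 1 and 3 to 5, a difference of 0.074 ± 0.061 (SE, limma adjusted p = 0.818) that was 0.033 without runner 3. Sdhd, a membrane anchor whose promoter holds an ETS and a receptor motif, ranged from 7.65 to 7.85 in controls and from 7.58 to 8.02 in runners, with runners 4 and 5 at the ends, and differed by 0.079 ± 0.085 (SE). Sdhb, the iron-sulfur subunit, and Sdhc, the other anchor, differed by -0.011 ± 0.087 and -0.015 ± 0.053 (SE).

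All 9 complex III genes had a difference above 0, with a median of 0.076 log2 and 0 at an unadjusted p under 0.05. Uqcrh, the hinge protein that helps cytochrome c dock, had the smallest p of any member above 0. It was at 7.86, 8.04, 8.13, 8.07 and 8.02 in controls and 8.32, 7.96, 8.27, 8.03 and 8.36 in runners. Runners 1, 3 and 5 lay above every control and runners 2 and 4 within the control range, a 1.12-fold difference (0.16 ± 0.086 SE, limma adjusted p = 0.729). Uqcrc2, a core subunit, and Uqcrb, a small subunit that binds ubiquinone, differed by 0.082 ± 0.067 and 0.076 ± 0.071 (SE). Uqcr10, a small accessory subunit, spread most, from 6.27 to 6.47 in controls and from 6.20 to 6.77 in runners, and differed by 0.079 ± 0.11 (SE). Without runner 3 the median of the complex was -0.0042.

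Cytochrome c (Cycs), which also starts apoptosis when it leaves mitochondria, was at 9.45, 9.46, 9.68, 9.68 and 9.52 in controls and 9.58, 9.47, 10.02, 9.69 and 9.80 in runners. Runner 3 stood above the rest and runners 1 and 2 within the control range, a difference of 0.15 ± 0.096 (SE, limma adjusted p = 0.770) that was 0.076 without runner 3. The row used, the brighter of 2 for Cycs, carries chromosome 19 in its identifier, whereas RefSeq places Cycs on chromosome 6, and which copy its probes read was not tested. The row on chromosome 6 differed by 0.085 (limma adjusted p = 0.885).

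Complex IV had 10 of 16 genes higher and 6 lower, with a median of 0.037 log2 (-0.0064 without runner 3 and -0.0094 without runner 5). Cox6b2, an isoform known from testis, was the 1 member at an unadjusted p under 0.05. It was at 6.06, 6.23, 6.18, 6.13 and 6.14 in controls and 6.00, 6.06, 6.03, 6.04 and 6.02 in runners. Control 1 lay within the runner range and the other controls above every runner, 1.08-fold lower in runners (-0.12 ± 0.050 SE, limma adjusted p = 0.674). Its unadjusted p was no longer under 0.05 with each array centred on its median, with repeated quantile normalization or with a replicate block. The same held with control 2, 3 or 5, or runner 1, 3, 4 or 5, left out. Cox7b and Cox7c, small subunits of the core enzyme, differed by 0.11 ± 0.072 and 0.087 ± 0.069 (SE). Cox6a1, with the brightest row of the complex, had means of 11.12 ± 0.048 for controls and 11.10 ± 0.12 for runners (SD, n = 5 each). Cox7b2, a testis isoform with the dimmest row, differed by 0.076 ± 0.081 (SE).

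Complex V had 15 of 18 genes higher and 3 lower, with a median of 0.040 log2 (-0.0069 without runner 3) and 0 at an unadjusted p under 0.05. Atp5l, which encodes subunit g of the membrane part, was at 9.52, 9.42, 9.72, 9.504 and 9.42 in controls and 9.76, 9.35, 9.97, 9.47 and 9.88 in runners. Runners 1, 3 and 5 lay above every control and runner 2 below all of them, a difference of 0.17 ± 0.11 (SE, limma adjusted p = 0.781) that was 0.097 without runner 3. Atp5l2 is a near-identical copy whose row showed the same order of runners and the same difference, 0.17 ± 0.11 (SE), and the probes may not tell the copies apart. The row used for Atp5l also lies off its RefSeq chromosome, and the row on chromosome 9 differed by 0.14. Atp5md, a small membrane subunit, differed by 0.087 ± 0.059 (SE), and Atp5mpl, another, spread most, from 9.19 to 9.44 in controls and from 8.95 to 9.76 in runners (0.095 ± 0.13 SE). The subunit c genes, which encode the same mature protein of the rotor ring, did not share a sign. Atp5g1 differed by -0.087 ± 0.063, Atp5g2 by -0.11 ± 0.087 and Atp5g3, added here after its value was seen, by 0.098 ± 0.092 (SE). Atp5sl, named Dmac2 in RefSeq and an assembly factor of complex I rather than a subunit of ATP synthase, had the dimmest row and differed by 0.071 ± 0.055 (SE).

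**Figure D2:**
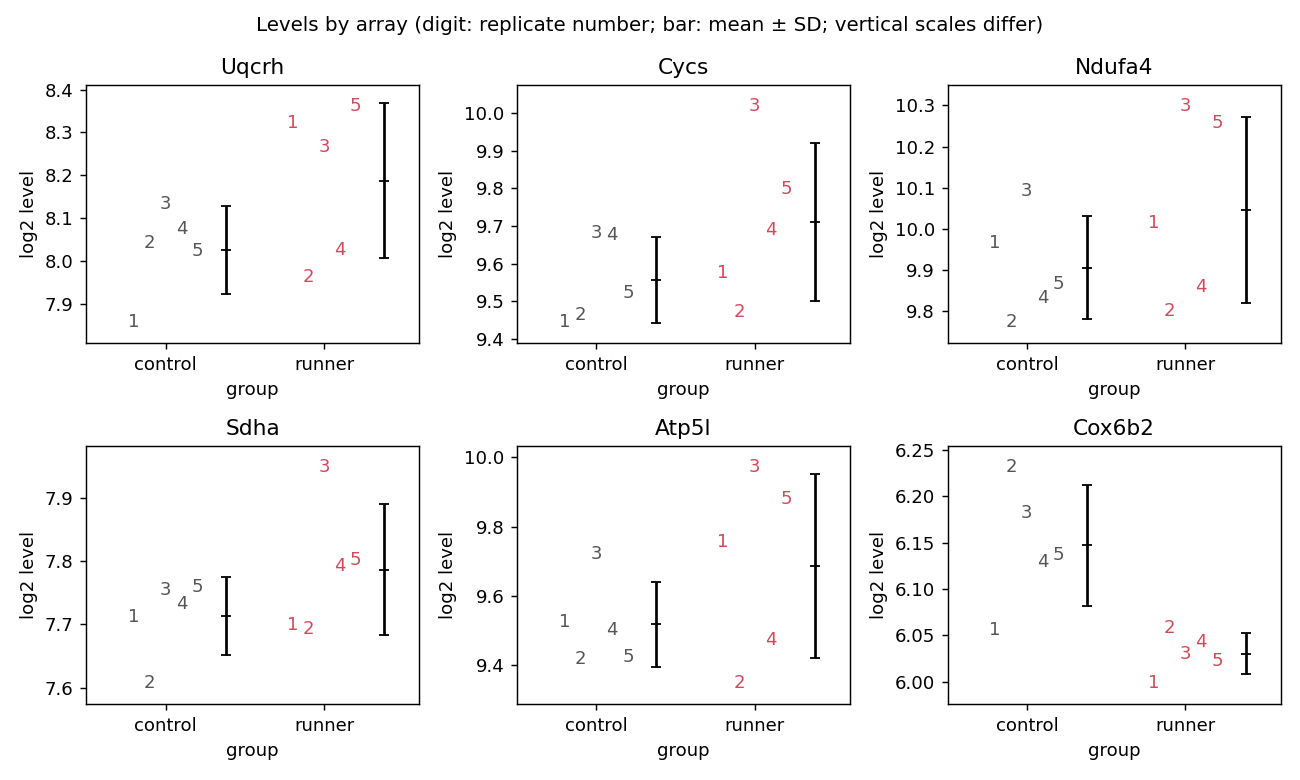
Log2 level of 6 genes in each array, with the digit giving the replicate number within a group and the bar the group mean ± SD (n = 5). Runner 3 is the highest array for Cycs, Ndufa4, Sdha and Atp5l, runner 5 for Uqcrh, and for Cox6b2 control 1 alone among the controls lies within the runner range.

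The arrays differed from each other, within both groups, in most respiratory chain genes at once. Against each gene's mean over 10 arrays, the average of the 84 genes lay at -0.017, -0.068, 0.091, -0.043 and -0.061 log2 in controls 1 to 5 and at -0.0059, -0.15, 0.20, -0.10 and 0.15 in runners 1 to 5. Runners thus held both the highest arrays, 3 and 5, and the lowest, 2 and 4, with an SD of 0.15 between runners and 0.065 between controls, while the group averages differed by 0.040. Runner 3 was the highest of the 10 arrays for 50 of 84 members (59.5%) and runner 5 for 22 (26.2%). Over all genes they were the highest array for 13.3% and 11.2%. Control 3 was the highest array for 6 of 84 members (7.14%), below its 11.3% of all genes. Runner 2 was the lowest array for 40 of 84 members, against 18.6% of all genes, and runner 4 for 16 of 84, near its 14.7% of all genes.

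The order of arrays was shared by the complexes. Runner 3 was the highest array in the average of each complex, from 0.16 in complex II to 0.23 in complex III. Runner 2 was the lowest in complexes I, III, IV and V, from -0.13 to -0.16, and in complex II the lowest were control 2 at -0.099 and runner 4 at -0.084. Runner 3 lay above the gene's own mean for 82 of 84 members, the exceptions being Ndufa3 and Cox6b2, and runner 2 for 6 of 84. The genes named for this pattern were chosen after their values were seen. Without runner 3 the group averages differed by -0.0055.

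**Figure D3:**
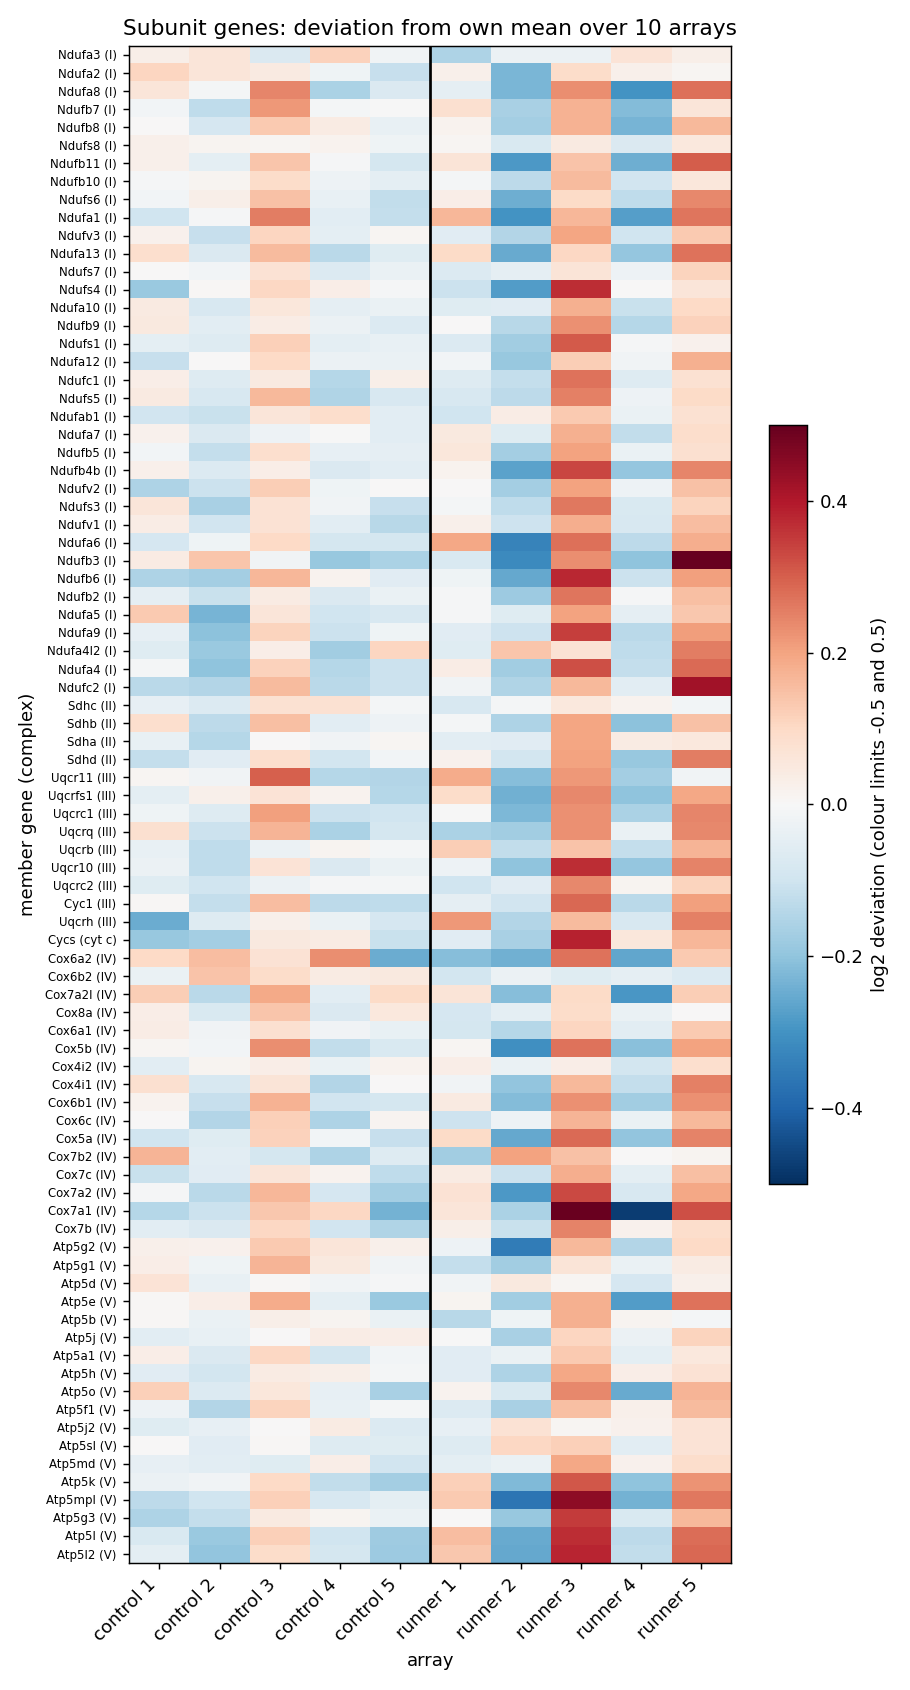
Deviation of each of the 84 genes (rows, with the complex in brackets) from its own mean over the 10 arrays (columns), with red above and blue below and controls to the left of the line. Runners 3 and 5 are red and runners 2 and 4 blue across most genes, while control 3 is the red column among controls.

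Marker genes of skeletal muscle, a tissue rich in the chain, varied between the arrays too. The 17 muscle markers averaged -0.043, 0.13, 0.13, 0.25 and -0.34 log2 in controls 1 to 5 and -0.13, -0.36, 0.43, -0.24 and 0.17 in runners 1 to 5, all 17 being measured. Runner 3 was highest and runner 2 lowest in this list as in the respiratory chain, whereas control 4 was the highest control for muscle and control 3 for the chain. The summed linear signal of the list lay between 3809 and 6412 in controls and between 3897 and 7214 in runners. Of the 17, 5 were higher and 12 lower in runners, 0 at an unadjusted p under 0.05, with Mb, the oxygen store myoglobin, at -0.11 ± 0.12 and Tnni1, the slow muscle troponin I, at -0.069 ± 0.058 (SE). With the muscle average as a covariate, 70 of 84 members and 51.2% of all genes were above 0. At an unadjusted p under 0.05, 4 of 84 members (4.76%) and 3.64% of all genes were then higher. The part of muscle in the respiratory chain values was not tested.

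Of 5 brown fat markers, 4 were higher in runners, beside 50.5% of all genes, without passing the test. The average of the list was highest in runner 3 at 0.71, as for the chain, followed by runner 2 at 0.65, which was lowest for the chain, and runner 5 at 0.63. Ucp1, the uncoupling protein of brown fat, was at 4.63, 5.24, 5.20, 6.26 and 6.65 in controls and 5.56, 8.80, 8.20, 7.13 and 7.93 in runners. Runners 2 to 5 lay above every control, and runner 2 was highest, a difference of 1.93 ± 0.54 (SE, limma adjusted p = 0.569). Elovl3, a fatty acid elongase of brown fat, differed by 1.04 ± 0.20 (SE, limma adjusted p = 0.279) and Cidea, a lipid droplet protein that was highest in runners 3 and 5, by 0.38 ± 0.20 (SE). The row of Elovl3 is dim, with means of 3.78 in controls and 4.82 in runners, both below the median gene. The other markers, Dio2 and Cox8b, differed by 0.055 ± 0.067 and -0.12 ± 0.14 (SE). Without runner 1 both Ucp1 and Elovl3 passed, at limma adjusted p = 0.0481 and 0.00619. Of the 5 markers, 2 were higher at an unadjusted p under 0.05, where 3.21% of all genes were. The summed signal lay between 300.2 and 426 in controls and between 327 and 817 in runners.

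The part of brown fat and of the lists that follow in the respiratory chain values was not tested. Of all genes, 50.5% were higher in runners, and at an unadjusted p under 0.05 3.21% were higher and 3.92% lower. All 7 cerebellar markers were higher, with 0 at an unadjusted p under 0.05, with summed signals of 4671 to 5328 in controls and 4255 to 6757 in runners, led by Gabra6 (0.24 ± 0.13) and Cbln3, a granule cell gene (0.24 ± 0.15 SE). All 6 erythroid markers were lower, with 2 at an unadjusted p under 0.05, with sums of 2439 to 3239 and 2000 to 3081, led by Car1, a carbonic anhydrase (-0.31 ± 0.12), and Alas2 (-0.25 ± 0.10). All 6 B lineage markers were lower, each of them at an unadjusted p under 0.05, with sums of 555 to 752 and 383 to 544, led by Fcrla (-0.71 ± 0.11) and the receptor chain Cd79b (-0.66 ± 0.11). Without runner 1, Fcrla and Cd79b passed at limma adjusted p = 0.0109 each and Alas2 at 0.0487. All 10 cochlear markers were lower, with 5 at an unadjusted p under 0.05. They were led by the strial channel subunit Kcne1 (-0.32 ± 0.12) and the fibrocyte regulator Pou3f4 (-0.35 ± 0.13). Their sums, 2733 to 3106 and 2293 to 3341, are mostly the signal of Coch, at a mean of 11.2. Slc26a5, Tecta and Kcnq1 were dim, at means of 4.34, 5.03 and 5.25. Cytosolic ribosomal protein genes, a list added after the data were seen, averaged highest in runner 1 at 0.13 and control 3 at 0.11, lowest in runner 2 at -0.19 and runner 4 at -0.16, and 0.032 in runner 3. Of the 38, 7 were higher, with 0 at an unadjusted p under 0.05.

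**Figure D4:**
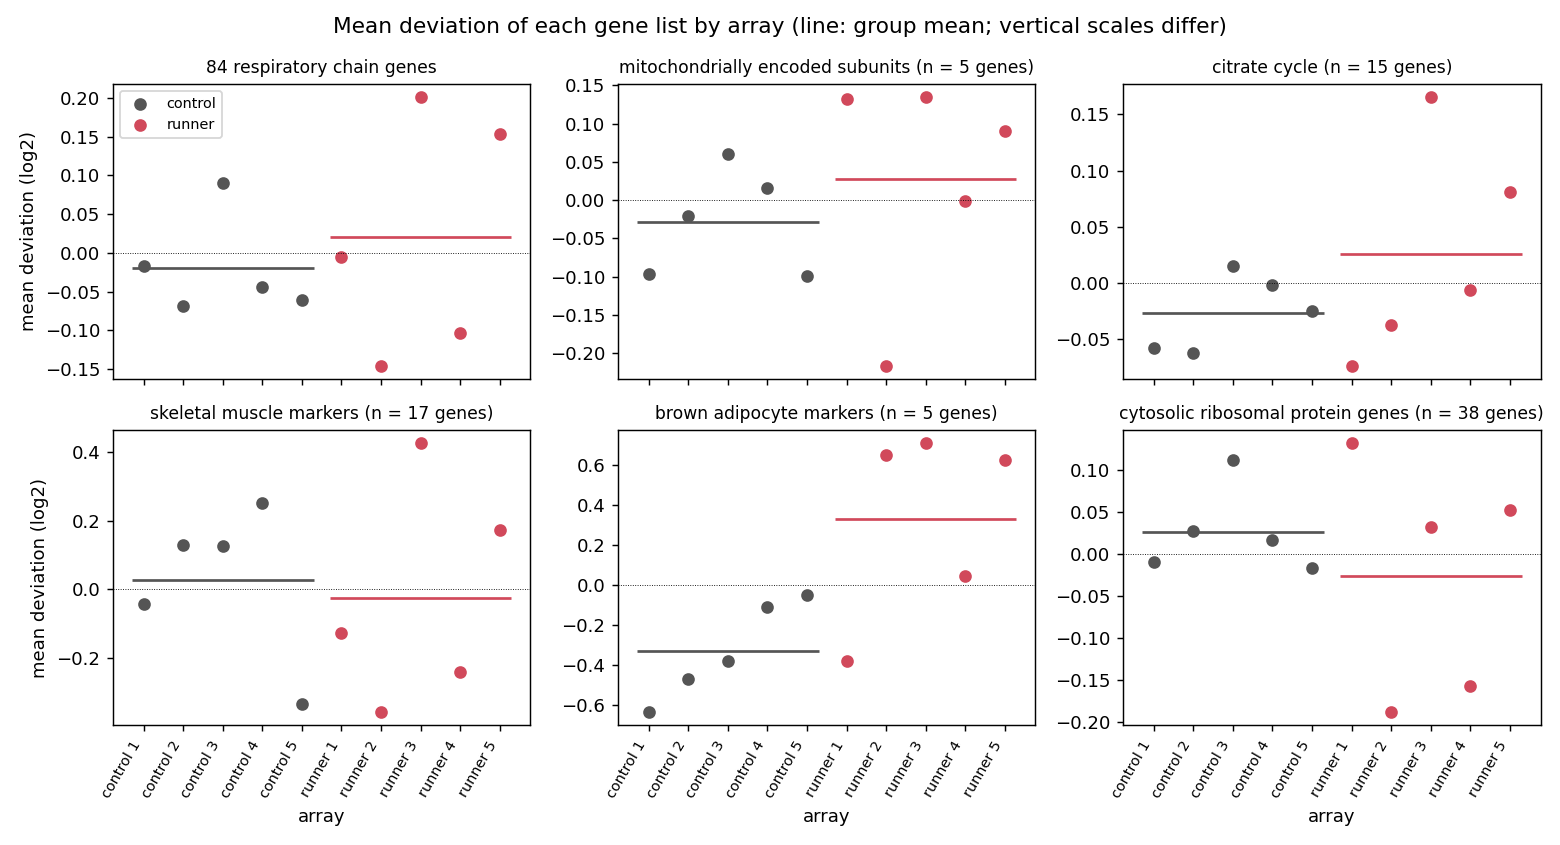
Mean log2 deviation of 6 gene lists in each of the 10 arrays (points; grey control, red runner), with lines at the group means and a vertical scale of its own in each panel. Runner 3 is highest for the respiratory chain at 0.20 and for muscle markers at 0.43, and also for brown fat markers at 0.71, while runner 2 is lowest for the chain and muscle and at 0.65 for brown fat.

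Tissue isoforms of complex IV can replace general ones, so the log2 level of each was set against its partner in the same array, and only the change of that difference between groups was compared. Cox7a1, the heart and muscle isoform, was at 7.92, 7.96, 8.20, 8.17 and 7.83 in controls and 8.13, 7.91, 8.56, 7.59 and 8.39 in runners, and had the largest SD of the complex IV genes. Runners 3 and 5 lay above and runner 4 below every control. The difference Cox7a1 minus Cox7a2 changed by 0.0082 ± 0.12 (SE, 95% interval -0.26 to 0.28, exact permutation p = 0.984, two-sided). It was -0.46 in runner 4 and between -0.21 and 0.12 in the other 9 arrays. Cox6a2, the other heart and muscle isoform, against Cox6a1 changed by -0.11 ± 0.10 (95% interval -0.34 to 0.13, exact permutation p = 0.341). Cox6b2 against Cox6b1 changed by -0.16 ± 0.12 (95% interval -0.44 to 0.12, exact permutation p = 0.206).

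For isoforms known to rise in low oxygen, the change was smaller than the spread between arrays. Cox4i2, expressed in lung and induced by hypoxia, against Cox4i1 changed by -0.023 ± 0.075 (95% interval -0.20 to 0.15, exact permutation p = 0.770). Ndufa4l2, a hypoxia-induced relative of Ndufa4, changed against Ndufa4 by -0.029 ± 0.11 (95% interval -0.27 to 0.21, exact permutation p = 0.810). The row of Ndufa4l2 is dim, at a mean of 4.93 in controls and below the median gene, where RMA values understate differences, so this pair says little. Adjusted over the 5 pairs, p lay between 0.853 and 0.984, and 0.00794 is the smallest p that 5 arrays against 5 allow. These p-values do not show that the isoforms act alike.

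**Figure D5:**
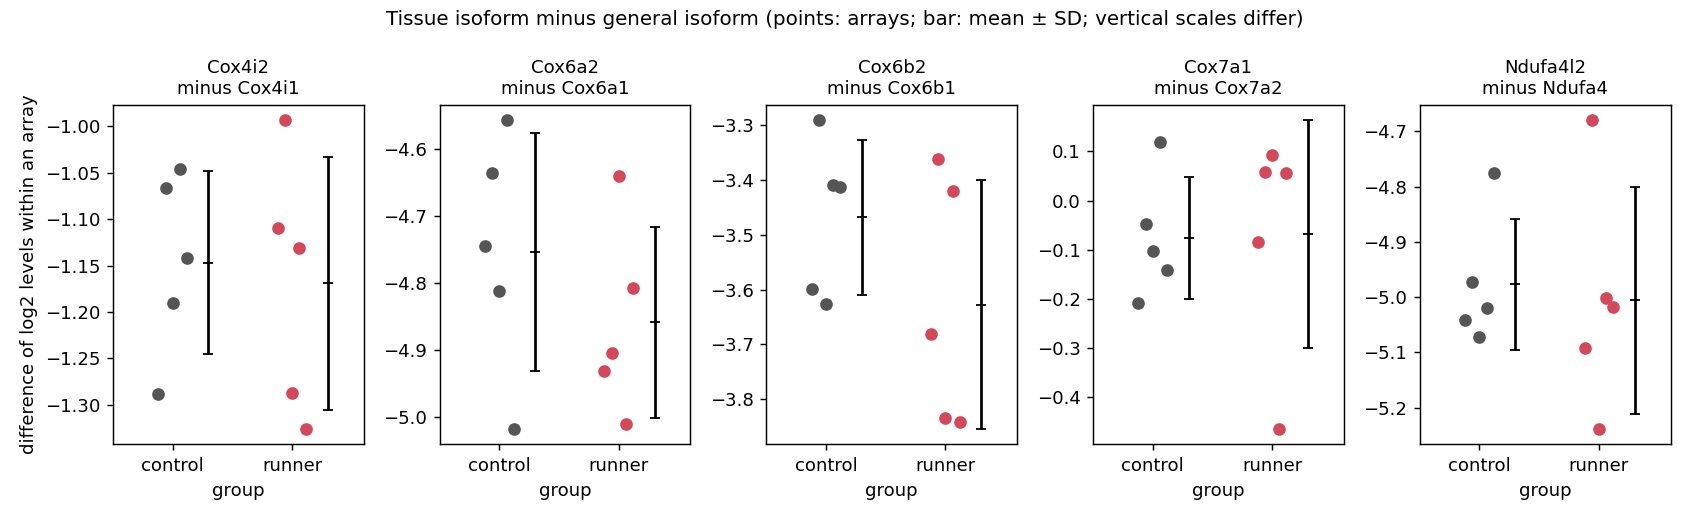
Log2 level of a tissue isoform minus that of its general partner in each array (points), with the group mean ± SD (bar, n = 5) and a vertical scale of its own in each panel. The groups overlap in all 5 panels, and runner 4 lies at -0.46 for Cox7a1 minus Cox7a2.

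Other mitochondrial genes were also mostly above 0, where 50.5% of all genes were, with no gene past the test. Their averages too depended on runner 3. Without it the average difference went from 0.056 to 0.030 log2 for mitochondrially encoded genes, from 0.058 to 0.027 for assembly factors, from 0.052 to 0.017 for citrate cycle genes and from 0.020 to 0.0065 for regulators. Of 13 genes encoded in mitochondrial DNA, 5 had a row of their own, 4 higher and 1 lower, with a median of 0.072 log2 and 0 at an unadjusted p under 0.05. ND2, a complex I subunit, was at 10.9, 11.1, 11.03, 11.1 and 10.9 in controls and 11.3, 11.1, 11.1, 11.3 and 11.01 in runners. Runners 1, 3 and 4 lay above every control, here with runner 1 and not runner 3 highest, a difference of 0.16 ± 0.075 (SE, limma adjusted p = 0.704), and ND3, of the same complex, differed by 0.092 ± 0.065 (SE).

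Assembly factors, which build the complexes but are not part of them, were higher in 30 of 38 measured, beside 50.5% of all genes. Their median was 0.049. Of the 38, 1 was higher at an unadjusted p under 0.05, where 3.21% of all genes were. It was Ttc19, which helps assemble complex III. Ttc19 was at 7.65, 7.45, 7.71, 7.67 and 7.65 in controls and 7.64, 7.90, 8.09, 7.96 and 7.87 in runners. Runners 2 to 5 lay above every control, 1.20-fold higher in runners (0.27 ± 0.082 SE, limma adjusted p = 0.592). Sdhaf1, which helps mature Sdhb, differed by 0.18 ± 0.087 (SE). Citrate cycle and pyruvate dehydrogenase genes were higher in 14 of 15, with a median of 0.058 and 0 at an unadjusted p under 0.05, led by Dlat, a pyruvate dehydrogenase subunit (0.11 ± 0.060), and Idh3a, an isocitrate dehydrogenase subunit (0.092 ± 0.065 SE). Regulators of mitochondrial gene expression were higher in 8 of 14, with a median of 0.012 and 0 at an unadjusted p under 0.05. Among them were the coactivator Ppargc1b (0.22 ± 0.14) and the transcription factor Nrf1 (-0.072 ± 0.049 SE), whose letters in promoters were given above.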

How the data were processed

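Per the labels' protocols, inner ear tissue was frozen and powdered, and its RNA biotinylated with an Affymetrix WT PLUS kit. The values are log2 expression per row as deposited by the authors, and, per the submitters' processing notes, RMA and Partek were used (no versions given). Chip, build and filters: not given in the sources used here. RMA's quantile step makes arrays alike in distribution, so a shift common to the majority of genes is lost, and differences of dim rows are understated. The precision is limited by the number of arrays, 5 a group.

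The platform annotation gave 1 symbol for 30130 of 39295 rows, several for 2146 and none for 7019. Rows with 1 symbol were used, and for several rows of a gene the one with the highest mean, which left 29765 genes. Of 88 member rows 84 were kept, and 4 rows shared by a member and another symbol were left out, with them Ndufb4 and Ndufa11. The gene test was two-sided, by lmFit and eBayes of limma 3.58.1 (R 4.3.3) without covariates and with Benjamini-Hochberg adjustment over all genes, and isoform pairs by an exact permutation test over arrays. Differences are runner minus control in log2. Intervals are 95%, from t quantiles with moderated errors for genes and ordinary errors for pairs. On simulated data with 29765 genes the limma step recovered 79% of 100 genes changed by 0.5 log2 and 99% of 100 changed by 1, with 11 false calls. The simulated noise was independent between genes and equal in spread between the groups. In the arrays members moved together and their average spread more between runners, so these rates may not hold for them. The number of changed genes, which enters the adjusted p, was set in the simulation and is not known for the arrays. There 2 genes passed, and Elovl3 and Ucp1, with differences of 1.04 and 1.93 log2, did not (limma adjusted p = 0.279 and 0.569). Recovery of differences under 0.5 log2, as all members had, was not tested. Mitochondrial genes are named ND2 and so on, as in the annotation.

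Members and lists were chosen with earlier results of these data known. Named members were the genes of smallest p in each complex (4 in I, II, IV and V, 3 in III), those at an unadjusted p under 0.05, the brightest, dimmest and most variable of each complex, Cycs and the isoform pairs, 33 in all. In other lists they were the 2 of smallest p, and the brightest marker. Same-numbered arrays of the groups deviated together with correlations of -0.25, 0.061, 0.28, 0.071 and -0.19, so the numbers were not taken as pairs. Alternatives were a filter on dim genes, other or no moderation, array weights, arrays centred on their median and a further quantile normalization. Others were different row or symbol choices, a replicate block, a muscle covariate, a narrower list, Ndufa4 in complex IV, and each array left out. The narrower subunit list left out Atp5sl, Cox7a2l and the isoforms Cox4i2, Cox6a2, Cox6b2, Cox7a1, Cox7b2 and Ndufa4l2. Rows on the RefSeq chromosome, and runner 1 and control 1 left out together, were added after the data were seen. Figures were drawn with matplotlib 3.10.9.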

Additional observations from a re-analysis of the deposited data

Results flagged for a closer look

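In groups of 5 arrays the highest or lowest was compared with the rest, and 5 of 134 groups had an array whose gap to its neighbour exceeded 0.71 of the group's range, where chance gives about 1 in 20. Ndufc2 was at 7.42 in control 3, with the other controls between 7.12 and 7.16. The average of the complex III genes was 0.10 above its mean in control 3, with the other controls between -0.082 and -0.040. Ttc19 was at 7.45 in control 2, against 7.65 to 7.71 in the others. Elovl3 was at 4.05 in control 5, against 3.65 to 3.75. Alas2 was at 9.98 in runner 1, against 9.37 to 9.53 in the other runners.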

How the results depend on the processing

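No respiratory chain gene passed under any alternative run. The median difference of the 84 genes was 0.041 as reported and 0.084 with array weights. With 1 array left out it changed sign, from -0.0074 without runner 3 to 0.082 without runner 2. The 84-gene average had a pooled SD of 0.12 between arrays of a group. That is a spread of single arrays and not the error of the median difference. The count above 0 lay between 38 (without runner 3) and 74 with 1 array left out. Members higher at an unadjusted p under 0.05 numbered 6 with array weights, 4 with the muscle covariate, 1 each with median centring, repeated quantile normalization and runner 1 and control 1 left out together, and 0 to 4 with 1 array left out. Higher by the same criterion were 5.79% of all genes with array weights, where the 6 members are 7.14%, 5.30% with centring, 3.64% with the covariate (3.21% as reported) and 3.91% without runner 2, where 4 members were. The share of all genes higher was 3.46% with repeated quantile normalization, 6.40% without runner 1 and control 1, and 2.26% to 5.87% with 1 array left out. Members lower numbered 0 with median centring, repeated quantile normalization and the replicate block, and 0 to 1 with 1 array left out. The 0 with the narrower subunit list was fixed in advance, since that list leaves out Cox6b2. Lower among all genes were 2.84% with centring, 4.35% with repeated quantile normalization and 3.44% with the block (3.92% as reported). With 1 array left out, 2.57% to 8.59% of all genes were lower. Genes passing in all numbered 15 with array weights, 1 without moderation, 420 without runner 1 and control 1, and 2 to 99 (without runner 1) with 1 array left out. The cause of these shifts was not tested.

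Marker genes passed that had not as reported. With array weights these were Elovl3 (1.12), Cd79b (-0.71) and Fcrla (-0.79), and without runner 1 and control 1 they were Elovl3, Ucp1, Cd79b, Fcrla, Alas2 and Car1. With the replicate block the median difference of members was 0.041 and 64 were above 0, as reported. This was fixed by the design, since both groups hold every replicate number, and only errors and p-values could change. Differences near 0 changed sign. With 1 array left out, Cox4i2 minus Cox4i1 ranged from -0.066 to 0.017, Cox7a1 minus Cox7a2 from -0.032 to 0.11 and Ndufa4l2 minus Ndufa4 from -0.11 to 0.029. Single genes ranged likewise, Atp2a1 from -0.077 to 0.14, Atp5mpl from -0.0044 to 0.20, Cox4i1 from -0.027 to 0.086, Cox4i2 from -0.010 to 0.033, Cox6a1 from -0.054 to 0.015 and Cox6b1 from -0.0085 to 0.10. Cox7a1 ranged from -0.012 to 0.23, Ndufb3 from -0.053 to 0.16, Ndufb9 from -0.027 to 0.065, Sdhb from -0.061 to 0.039, Sdhc from -0.034 to 0.0037 and Uqcr10 from -0.0042 to 0.14. Cox6a1 turned to 0.024 with array weights, 0.0049 with centring, 0.037 with repeated quantile normalization and 0.0083 without runner 1 and control 1, and Sdhb to 0.041, 0.012 (centring), 0.0064 (muscle covariate) and 0.010. Sdhc turned to 0.0048 with array weights and 0.0086 with centring, and without runner 1 and control 1 Cox4i2 was -0.0096 and Cox7a1 minus Cox7a2 was -0.021. Moderation, array weights and symbol choices do not apply to the isoform pairs.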
